A study of Mus musculus with 12 samples.

Results

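Autophagy delivers cell contents to lysosomes, and the transcripts of 36 genes of this route were followed in 12 mouse tumours. The genes were chosen by symbol from a list of autophagy and lysosome genes, and all 36 were found among 25116 rows of the deposited count table. They cover the core machinery of autophagosome formation, receptors for selective cargo, lysosomal membrane proteins with their transcription factors, and Peg3, a zinc finger gene that has been reported to mediate autophagy evoked by endorepellin. Tumours were allografts of E0771, a line of triple-negative breast cancer from mouse, in the mammary fat pad. All hosts were C57BL/6J mice that carried Tie2CreER together with ERKi, a knock-in gene for endorepellin, the C-terminal fragment of the basement membrane proteoglycan perlecan. Before the tumour cells were implanted, hosts of 7 tumours were given tamoxifen, which activates the recombinase (the induced group), and hosts of 5 tumours a control injection whose content the labels do not describe (the control group), so the groups differ in tamoxifen itself as well as in the knock-in gene. Tumours were taken at day 22. The labels give neither the age of the mice nor whether each tumour came from its own mouse, so p-values measure the spread between these tumours.

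In autophagy, the ULK1 kinase complex starts the process and a class III phosphoinositide 3-kinase complex marks the forming membrane with phosphatidylinositol 3-phosphate. Ubiquitin-like conjugation then attaches proteins of the Atg8 family (LC3 and GABARAP) to the membrane, where they bind cargo receptors such as p62, the product of Sqstm1. The closed vesicle fuses with a lysosome, and TFEB and TFE3 are transcription factors that switch on many genes of lysosomes and autophagy. In cultured endothelial cells endorepellin has been reported to evoke autophagy with a rise of Peg3. The flow of cargo through the route is set largely by protein modification, which RNA levels do not show.

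The RNA came from whole tumour samples, in which endothelial cells, the cells where the Tie2 promoter drives the recombinase, are a small part, and Tie2 is also active in some blood-forming cells. The summed level of 6 endothelial markers was 84.3 to 136 CPM (counts scaled to the effective size of each library) in the control group and 84.2 to 125 CPM in the induced group. The summed level of 5 epithelial markers (Krt8, Krt18, Krt7, Epcam and Cdh1) was 1.75 to 6.07 CPM in the control group and 2.07 to 4.5 CPM in the induced group, so the usual markers of carcinoma epithelium were nearly missing from these samples. Total counts were 18993192 to 28372821 per tumour. Control 1, control 2, induced 3 and induced 4 stood apart from the other 8 tumours on the first principal component of all genes tested, which held 45.6% of the variance. Hspg2, the gene for perlecan, was at 550 ± 81.4 CPM (SD, n = 5) in the control group and 536 ± 100.1 CPM (SD, n = 7) in the induced group. No source says if knock-in reads count toward Hspg2, so this is no measure of induction.

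All 36 genes passed the filter on low counts, and none differed between the groups past the threshold. By edgeR's quasi-likelihood test 0 of 36 had an adjusted p under 0.05, where the share over all 15199 genes tested was 0%. At an unadjusted p under 0.05 there was 1 of 36, Tfeb, against 2.13% of all genes tested. DESeq2 and limma-voom also gave 0 of 36 past the threshold, with 1 and 0 at an unadjusted p under 0.05. The levels of the groups overlapped for each of the 36 genes, while groups without overlap were seen for 0.0592% of all genes tested. The log2 fold change (induced minus control) was below 0 for 22 of 36 genes, against 50.2% of all genes tested, and its median was -0.020 against -0.00083 over all genes. Without control 2 it was below 0 for 14 of 36 genes, with a median of 0.024. In a bulk sample, fewer cells of a type and less RNA per cell cannot be told apart, which holds for each level given here.

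The intervals of these differences were narrow for most of the genes. The 95% interval of the log2 fold change, from the same fit and not adjusted for the number of genes, lay within 1.5-fold either way for 33 of 36 genes, against 57% of all genes tested and 84.3% of the genes with a mean of at least 10 CPM. The exceptions were Atg9a, Tfeb and Peg3. The median standard error was 0.13 for the 36 genes, 0.18 over all genes tested and 0.13 over genes with a mean of at least 10 CPM. These intervals hold for RNA of the whole tumour, and a change limited to endothelial cells was not tested.

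**Figure D1:**
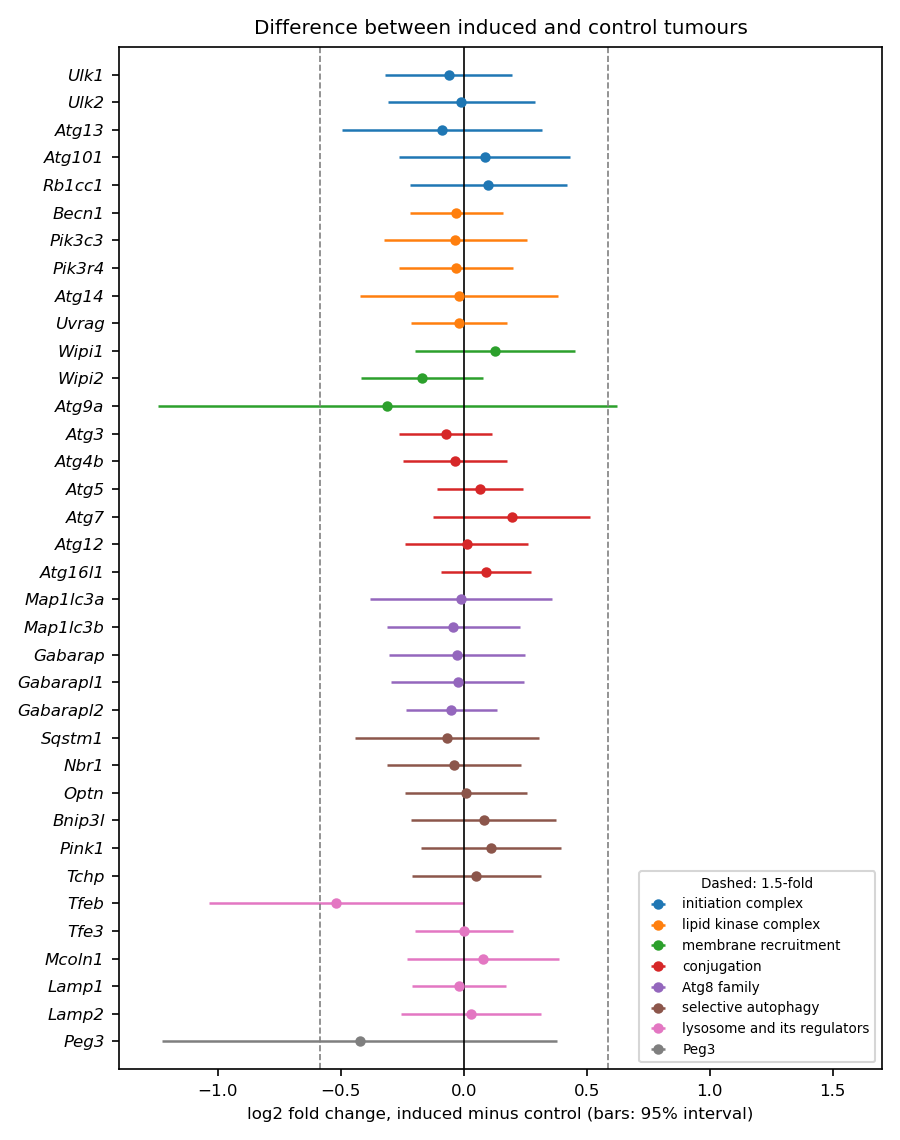
Log2 fold change of each of the 36 genes (points, induced minus control, edgeR) with its 95% interval (bars), coloured by role, with dashed lines at 1.5-fold. The intervals of Atg9a, Tfeb and Peg3 cross a dashed line and those of the other 33 genes do not.

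Peg3, also known as Pw1, is an imprinted gene at chr7:6703892-6730431 (GRCm38, minus strand), with 13324 exonic bases. It was the least abundant of the 36 genes, at 0.119 CPM per kilobase of exonic sequence, rank 14800 of 15158 genes by that measure, and its raw counts were 9 to 63 per tumour. In control tumours it was at 1.28, 1.12, 3.08, 2.50 and 1.37 CPM in control 1 to control 5. The induced tumours ran from 0.416 CPM in induced 5 to 2.11 CPM in induced 2, with a median of 1.48 CPM. Control 3 and control 4 were the highest of the 12 tumours, and the other 3 control tumours lay inside the range of the induced tumours.

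The difference for Peg3 was not larger than the spread of the tumours, and its interval was wide. Group means were 1.87 ± 0.868 CPM (SD, n = 5) and 1.39 ± 0.537 CPM (SD, n = 7), with a log2 fold change of -0.42 (SE 0.37, 95% interval -1.22 to 0.38, adjusted p = 0.99989, edgeR). In mean log2 CPM the difference was -0.41 (two-sided exact permutation test, p = 0.3333), and its 95% interval from -1.3 to 0.4 covers 0.406-fold to 1.32-fold. Among control 1, control 2, induced 3 and induced 4 alone the log2 fold change was 0.45 (SE 0.39), and among the other 8 tumours it was -0.86 (SE 0.42), with adjusted p of 0.99957 and 0.98978 (edgeR). Without control 3 it was -0.18 and without induced 5 it was -0.26. The authors' deposited table gives a log2 fold change of -0.42 with an unadjusted p of 0.254.

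**Figure D2:**
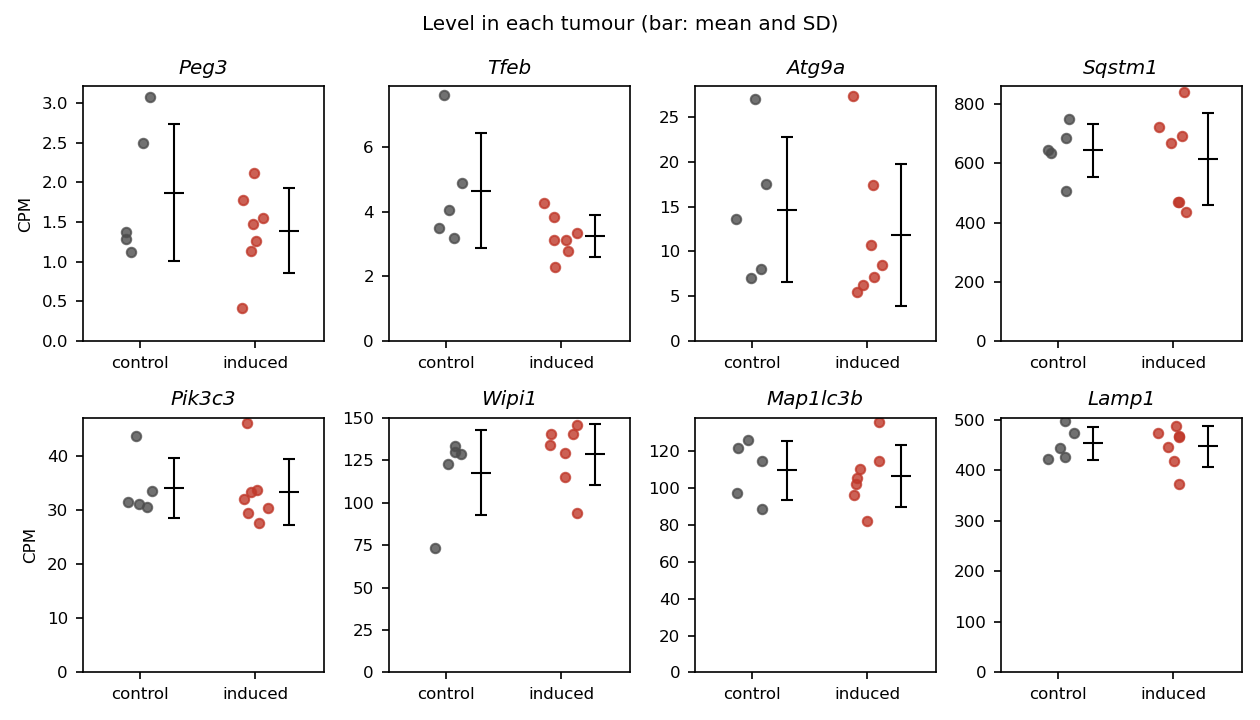
CPM of 8 of the 36 genes in each tumour (grey points control, red points induced, horizontal offset arbitrary) with the mean and SD of each group (black bars). The groups overlap in every panel, control 1 is the highest tumour for Tfeb and the lowest for Wipi1, and induced 5 is the lowest for Peg3.

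Tfeb, the transcription factor that drives lysosomal genes, had the smallest p of the 36 genes. It occupies chr17:47737030-47792419 (GRCm38, plus strand). Its level was 7.63, 4.06, 3.18, 4.90 and 3.49 CPM in control 1 to control 5. With induction it ranged from 2.29 CPM in induced 7 to 4.28 CPM in induced 4, with a median of 3.14 CPM. Control 1 stood highest, and the other 4 control tumours lay between 3.18 and 4.90 CPM, while 4 of the 7 induced tumours lay below the lowest of them.

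The Tfeb difference was smaller without control 1. Means were 4.65 ± 1.79 CPM (SD, n = 5) in control and 3.25 ± 0.655 CPM (SD, n = 7) in induced tumours, with all 7 induced tumours below the control mean. The log2 fold change was -0.52 (SE 0.24, unadjusted p = 0.04996, adjusted p = 0.99989, edgeR). Without control 1 it was -0.27 (unadjusted p = 0.219, edgeR), and within the 8 tumours that did not stand apart it was -0.34 (unadjusted p = 0.182, edgeR). Within the 4 tumours that stood apart it was -0.66 (unadjusted p = 0.201, edgeR), and without control 3 it was -0.64 (unadjusted p = 0.0233, edgeR). Over the fits that each left out 1 tumour it ran from -0.64 to -0.27. The DESeq2 value was -0.53 (unadjusted p = 0.039), and limma-voom gave -0.32 (unadjusted p = 0.116). The authors' own comparison gives -0.52 with an unadjusted p of 0.0323. Summed markers of several cell types were, like Tfeb, highest in control 1, and their part in the result was not tested. The summed level of macrophage markers (Adgre1, Csf1r, Cd68, Lyz2, Mrc1 and Fcgr1) was 216 to 1378 CPM in the control group and 128 to 920 CPM in the induced group, 6 of 6 markers had lower means in induced tumours, and none was at 0 in any tumour. The sum was highest in control 1 and lowest in induced 7, which were also the highest and the lowest tumour for Tfeb. Fibroblast markers (Col1a1, Col1a2, Col3a1, Pdgfra, Dcn and Lum) were likewise highest in control 1, with a sum of 661 to 3206 CPM in the control group and 542 to 1991 CPM in the induced group, 6 of 6 markers lower in the induced group and none at 0. The endothelial sum given above was also highest in control 1 and lowest in induced 7, with 5 of 6 markers lower in the induced group and none at 0. T cell markers (Cd3e, Cd3d, Cd4 and Cd8a) summed to 1.37 to 23.4 CPM in the control group and 0.911 to 8.12 CPM in the induced group. This sum was highest in control 1, 4 of 4 markers were lower in the induced group, and 3 of them were at 0 in at least 1 tumour. The sums of B cell markers (36.6 CPM) and of the epithelial markers (6.07 CPM) were also highest in control 1. Those of neutrophil, skeletal muscle, adipocyte and erythroid markers were highest in other tumours. Control 4, the next highest tumour for Tfeb, had a macrophage sum of 261 CPM and an endothelial sum of 84.3 CPM.

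The related factor Tfe3 showed no such difference. It was at 39.2 ± 4.23 CPM in the control group and 39.3 ± 3.35 CPM in the induced group (SD over 5 and 7 tumours), with an interval of the log2 fold change from -0.20 to 0.20. Per kilobase of exonic sequence Tfe3 stood at 4.24 CPM and Tfeb at 0.677 CPM. Tfe3 was therefore the more abundant of these transcripts in the tumours.

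TFEB and TFE3 bind E-box sequences with the core CACGTG, and the flanked form TCACGTG is part of the element found at many lysosomal promoters. Promoter windows of 300 bases (250 before to 50 after the start, RefSeq, GRCm38.p6) were found and searched on both strands for 29 of the 36 genes. These 29 genes had 33 windows. TCACGTG was present for 5 of the genes, Lamp1, Mcoln1, Atg3, Atg7 and Atg14. It was in 5 of the 33 windows, against 3.77% of all 32851 windows. The longer form TCACGTGA, which contains TCACGTG, was present for Mcoln1 and Atg3 and in 0.974% of all windows. The stretches with TCACGTG are shown because they mark which of the genes carry this flanked form. TCACGTG and its reverse complement CACGTGA, including the overlapping form TCACGTGA, are in capitals, and each stretch runs 5′ to 3′ on the strand of the gene.
Lamp1, chr8:13159079-13159171, plus strand: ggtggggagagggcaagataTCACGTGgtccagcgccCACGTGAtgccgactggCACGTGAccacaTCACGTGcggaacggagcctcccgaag
Mcoln1, chr8:3500427-3500500, plus strand: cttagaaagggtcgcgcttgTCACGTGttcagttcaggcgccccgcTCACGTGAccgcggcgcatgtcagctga
Atg3, chr16:45158714-45158784, plus strand: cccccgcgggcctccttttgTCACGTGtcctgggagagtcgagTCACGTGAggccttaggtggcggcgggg
Atg7, chr6:114670943-114670989, plus strand: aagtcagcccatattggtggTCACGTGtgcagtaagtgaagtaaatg
Atg14, chr14:47568409-47568455, minus strand: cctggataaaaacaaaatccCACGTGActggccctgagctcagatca

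The window of Lamp1 held 4 copies between 62 and 16 bases before the start, a number reached by 4 of all 32851 windows. Mcoln1 and Atg3 held 2 copies each, where 0.314% of all windows hold at least 2. The starts used for the Mcoln1, Atg3, Atg7 and Atg14 windows lie inside the annotated genes, downstream of the outermost annotated start. These genes span chr8:3500457-3515232, chr16:45158785-45188538 and chr6:114643097-114860614 on the plus strand, and chr14:47540893-47570649 on the minus strand. The Atg7 and Atg14 copies and the Mcoln1 copy nearest to the start used also lie inside the annotated genes. A match describes the letters and does not show binding in these tumours. None of these 5 genes differed past the threshold. Their log2 fold changes were -0.018 for Lamp1, 0.078 for Mcoln1, -0.073 for Atg3, 0.20 for Atg7 and -0.019 for Atg14.

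Lamp1 and Lamp2 encode the most abundant glycoproteins of the lysosomal membrane. The level of Lamp1 was 453 ± 32.2 CPM in the control group and 448 ± 40.0 CPM in the induced group (SD over 5 and 7 tumours), with a 95% interval of the fold from 0.865 to 1.13, and 9.31% of its exonic bases are shared with Grtp1 on the opposite strand. Lamp2, on the X chromosome, was at 238 ± 45.4 CPM and 243 ± 33.8 CPM. Mcoln1, the calcium channel of lysosomes, was at 45.5 ± 7.10 CPM and 48.0 ± 9.38 CPM. Of the 5 genes of lysosomes and their regulators, 2 had lower and 3 higher means of the fit in induced tumours, and the interval of 4 lay within 1.5-fold.

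The initiation complex was at similar levels in both groups. Its kinases Ulk1 and Ulk2 were at 23.4 ± 3.46 and 31.7 ± 5.64 CPM in the control group and at 22.4 ± 2.96 and 31.5 ± 5.24 CPM in the induced group (SD over 5 and 7 tumours). Their partners Atg13 and Atg101 were at 36.4 ± 7.38 and 33.1 ± 7.48 CPM in the control group and at 34.3 ± 9.54 and 35.1 ± 6.12 CPM in the induced group. Rb1cc1, which encodes the scaffold FIP200, had the smallest p of the complex. It was at 59.3, 92.8, 60.3, 52.4 and 61.5 CPM in control 1 to control 5 and ranged from 58.9 CPM in induced 6 to 91.2 CPM in induced 3, with a median of 69.6 CPM. Control 2 and induced 3 were the highest, with the other 10 tumours at or under 75.5 CPM, and the edgeR log2 fold change was 0.10 ± 0.15 (SE; adjusted p = 0.99989). Without control 2 this was 0.25 (SE 0.12), without control 4 it was 0.024 and without induced 3 it was 0.025.

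The lipid kinase complex had the narrowest range of differences among the roles. Log2 fold changes of its 5 genes ran from -0.035 to -0.019, and all 5 intervals lay within 1.5-fold. Becn1, which encodes Beclin 1, a regulatory subunit, was at 113, 103, 96.3, 87.6 and 97.7 CPM in control 1 to control 5. The induced group ran from 84.7 CPM in induced 2 to 108 CPM in induced 7, with a median of 99.9 CPM. Induced 1 and induced 2 lay just below the lowest control tumour, and the other 5 induced tumours lay inside the range of the control tumours. The 95% interval of the fold for Becn1 was 0.859 to 1.12, and 43.9% of its exonic bases are also annotated to Cntd1 on the opposite strand, so its counts could include reads of that gene.

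The catalytic subunit Pik3c3 (VPS34) was at 34.1 ± 5.52 CPM in the control group and 33.3 ± 6.08 CPM in the induced group, and its regulatory subunit Pik3r4 (VPS15) at 27.7 ± 3.14 and 27.1 ± 3.57 CPM (SD over 5 and 7 tumours). Both were highest in induced 3 and second highest in control 2. Atg14, which directs the complex to autophagosome formation, was at 11.7 ± 3.00 and 11.6 ± 2.65 CPM. Uvrag, which is part of an alternative form of the complex that acts on endosomes, was at 71.9 ± 7.80 and 70.9 ± 6.28 CPM. Uvrag shares 17.6% and Atg14 5.53% of exonic bases with annotated transcripts on the opposite strand.

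Genes that bring membrane to the forming vesicle were more varied. Wipi2, a reader of phosphatidylinositol 3-phosphate, was at 88.6, 97.2, 72.0, 75.0 and 87.5 CPM in control 1 to control 5. With induction it ranged from 62.3 CPM in induced 6 to 90.3 CPM in induced 7, with a median of 79.3 CPM. Induced 1, induced 2 and induced 6 lay below the lowest control tumour, and the log2 fold change was -0.17 (SE 0.12, unadjusted p = 0.167, adjusted p = 0.99989, edgeR). Its relative Wipi1 was at 118 ± 25.1 CPM in the control group and 129 ± 18.1 CPM in the induced group (SD over 5 and 7 tumours), and without control 1, at 73.3 CPM the lowest of the 12 tumours, its log2 fold change of 0.13 was -0.013.

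Atg9a, the lipid scramblase that travels on the vesicles which seed the membrane, was singled out after its values were seen because it varied most after Peg3, by 4.98-fold over the 12 tumours. It was at 17.5, 27.0, 7.09, 8.03 and 13.6 CPM in control 1 to control 5. The induced tumours ran from 5.48 CPM in induced 6 to 27.3 CPM in induced 3, with a median of 8.46 CPM. The highest values were those of control 2, induced 3, control 1 and induced 4, which are the 4 tumours that stood apart over all genes. Means were 14.7 ± 8.12 and 11.8 ± 7.92 CPM (SD over 5 and 7 tumours), and the log2 fold change of -0.31 (95% interval -1.24 to 0.62) was 0.025 without control 2, -0.66 without induced 3 and -0.34 without the 4 tumours. Of its exonic bases, 31.8% are also annotated to Gm29253 on the same strand, so its level depends on how shared reads were counted.

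Conjugation genes other than Atg7 differed little between the groups. Atg5, the partner of Atg12, was at 39.2 ± 1.68 CPM in the control group and 41.1 ± 3.66 CPM in the induced group (SD over 5 and 7 tumours), and its highest tumour was 1.26 times its lowest, the smallest ratio of the 36 genes. Atg12, the ubiquitin-like protein, was at 49.6 ± 4.84 and 49.96 ± 7.82 CPM, and Atg16l1, which positions the Atg12 and Atg5 conjugate on the membrane, at 57.5 ± 5.94 and 61.4 ± 4.41 CPM. Atg3, the enzyme that transfers Atg8 proteins to lipid, was at 56.7 ± 5.50 and 53.9 ± 4.47 CPM, and Atg4b, the protease that trims them, at 54.2 ± 5.24 and 52.8 ± 6.11 CPM. All 6 intervals of this role lay within 1.5-fold.

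Atg7, the activating enzyme of the conjugation systems, had the highest log2 fold change of the 36 genes. Its level was 50.2, 53.9, 71.3, 72.7 and 65.4 CPM in control 1 to control 5. The induced group ran from 46.6 CPM in induced 4 to 88.6 CPM in induced 2, with a median of 72.8 CPM. The lowest values over both groups were those of induced 4, control 1 and control 2. The log2 fold change was 0.20 (SE 0.15, unadjusted p = 0.208, adjusted p = 0.99989, edgeR), and 6 of 7 induced tumours lay above the control mean. Without induced 4 the edgeR value was 0.28 ± 0.12 (SE; adjusted p = 0.908), with an unadjusted p under 0.05, and without control 1 it was 0.12 (SE 0.15).

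Transcripts of the Atg8 family had log2 fold changes from -0.050 to -0.012, and all 5 intervals lay within 1.5-fold. Map1lc3a and Map1lc3b, which encode LC3 proteins, were at 18.2 ± 3.62 and 110 ± 16.0 CPM in the control group and at 18.0 ± 4.04 and 107 ± 16.6 CPM in the induced group (SD over 5 and 7 tumours). Gabarap was the most abundant of the family, at 120 CPM per kilobase of exonic sequence. It was at 223 ± 37.9 CPM in the control group and 219 ± 33.9 CPM in the induced group, and Gabarapl1 was at 119 ± 18.7 and 117 ± 17.2 CPM. Gabarapl1 shares 28.3% of its exonic bases with a transcript on the opposite strand, and members of the family resemble each other in sequence, so counts could be split between them.

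Gabarapl2 had the smallest p of the family. It was at 43.1, 45.6, 42.6, 49.9 and 45.9 CPM in control 1 to control 5. With induction it ranged from 39.9 CPM in induced 2 to 51.4 CPM in induced 7, with a median of 42.7 CPM. Induced 7 was the highest of all tumours and induced 1 and induced 2 the lowest, and the edgeR log2 fold change was -0.050 ± 0.086 (SE; adjusted p = 0.99989). Within each group the tumours differed by more than the group means did. The summed level of the 5 genes was 436 to 618 CPM in the control group and 424 to 638 CPM in the induced group, with control 4 and induced 7 the highest and control 1, induced 4 and induced 6 the lowest.

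Sqstm1, which encodes the cargo receptor p62, was the most abundant of the 36 genes both in CPM and per kilobase of exonic sequence, at 187 CPM per kilobase and rank 232 of 15158 genes. It was at 644 ± 88.9 CPM in the control group and 614 ± 156 CPM in the induced group (SD over 5 and 7 tumours). Among the induced tumours 3 lay from 437 to 470 CPM and 4 from 668 to 841 CPM, with no tumour between, while control tumours ran from 507 to 748 CPM. The 95% interval of the fold was 0.736 to 1.24. Of its exonic bases, 17.3% are also annotated to Mrnip on the opposite strand.

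Other receptors and mitophagy genes were also close between the groups. Nbr1, a relative of p62, was at 68.6 ± 12.1 CPM in the control group and 66.8 ± 9.72 CPM in the induced group, and Optn, a receptor for ubiquitin-marked cargo, at 12.3 ± 1.43 and 12.4 ± 1.30 CPM (SD over 5 and 7 tumours). Bnip3l (NIX), a receptor on mitochondria, was at 158 ± 25.1 and 167 ± 28.7 CPM. Tchp, which encodes trichoplein (mitostatin), a keratin-binding protein that has been linked to mitophagy, was at 12.3 ± 1.57 and 12.8 ± 1.5 CPM.

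Pink1, the kinase that marks damaged mitochondria for removal, had the smallest p of this role. It was at 38.8, 49.4, 40.7, 44.9 and 43.6 CPM in control 1 to control 5. The induced tumours ran from 32.3 CPM in induced 6 to 60.7 CPM in induced 3, with a median of 45.2 CPM. Both the lowest and the highest of the 12 tumours were induced, and the edgeR log2 fold change was 0.11 ± 0.13 (SE; adjusted p = 0.99989).

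**Figure D3:**
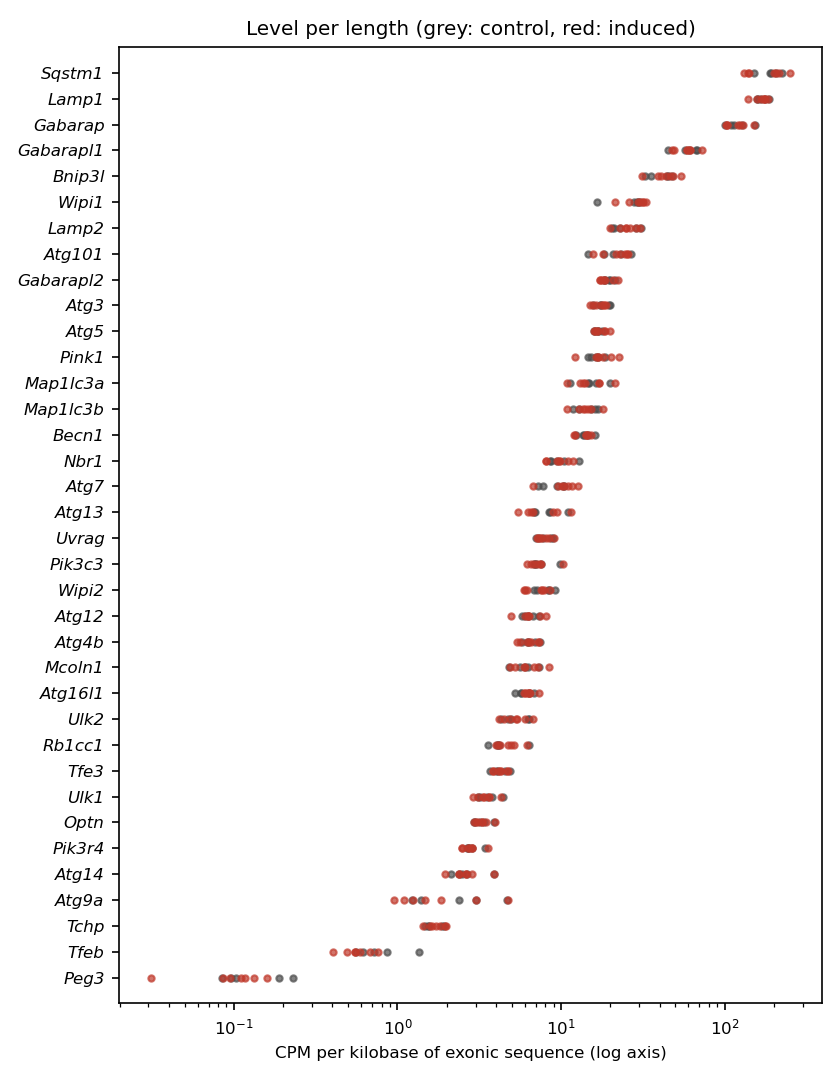
Level of each of the 36 genes in each tumour as CPM per kilobase of exonic sequence on a log axis (grey points control, red points induced), ordered by mean level. Sqstm1, Lamp1 and Gabarap lie above 100 CPM per kilobase and Peg3 lies lowest, and grey and red points overlap for each gene.

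Seen over tumours in place of groups, the genes fell into patterns that did not follow the injection. For 9 of 36 genes (25% against 10.7% of all genes tested) the highest pair of tumours was control 2 and induced 3. These were Ulk1, Atg13, Rb1cc1, Pik3c3, Pik3r4, Atg14, Atg9a, Atg4b and Nbr1, which include 3 of 5 genes of the initiation complex and 3 of 5 of the lipid kinase complex. This pair was noticed in the values and was not tested.

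Induced 6 and induced 7 lay at opposite ends of the induced group. Induced 6 was the lowest of the 12 tumours for 14 of 36 genes (38.9% against 11.4% of all genes tested), and induced 7 the highest for 9 of 36 (25% against 9.49%). Induced 3 was also the highest for 9 of 36 genes (25% against 15.8%). After each gene was centred on its own mean, the median log2 CPM of the 36 genes was -0.18 in induced 6, 0.16 in induced 7, 0.14 in induced 3 and 0.14 in control 2, and the other 8 tumours lay between -0.12 and 0.025. The 36 genes varied within groups by a median SD of 0.22 in log2 CPM, against 0.32 over all genes tested and 0.23 over genes with a mean of at least 10 CPM.

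**Figure D4:**
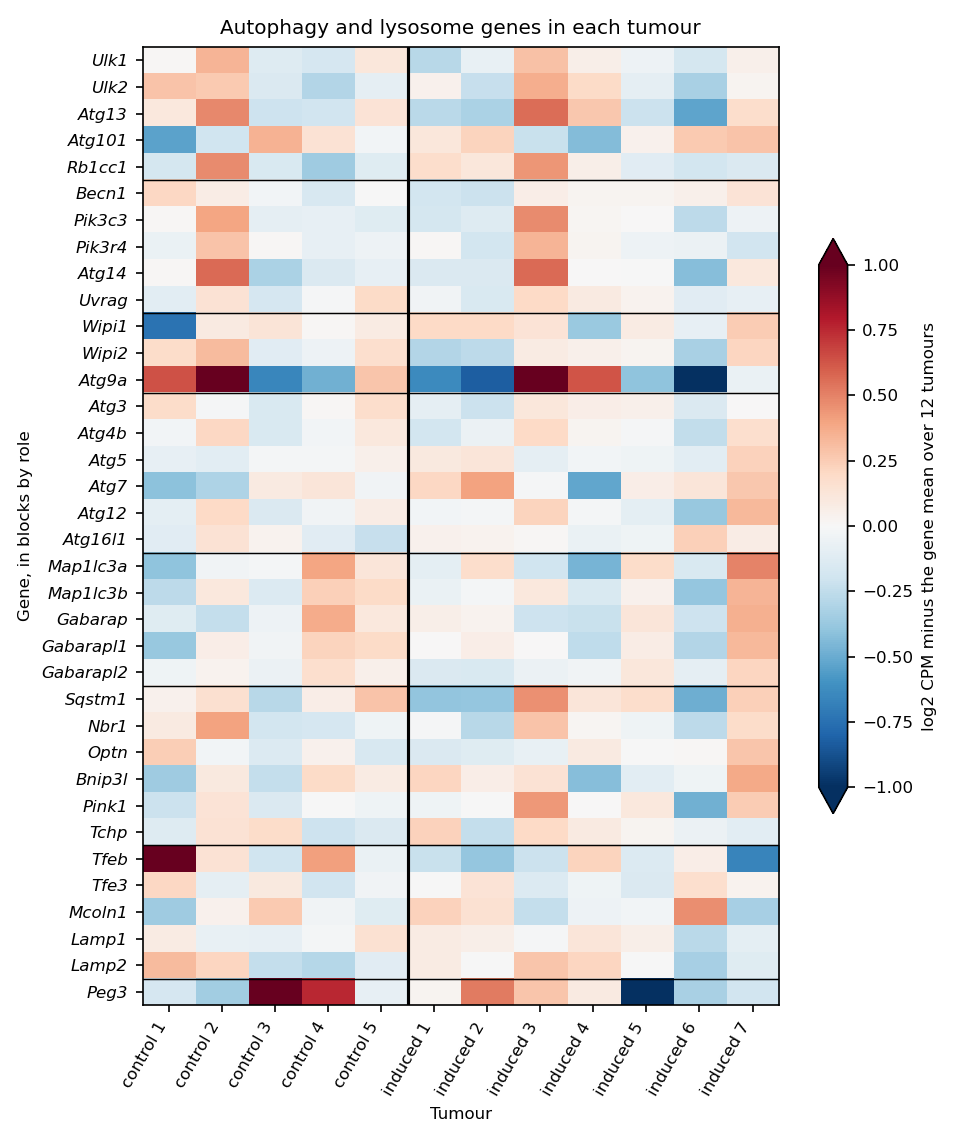
Log2 CPM of each of the 36 genes (rows, in blocks by role) in each tumour (columns, control left of the line), centred on the mean of the gene and coloured from -1 to 1. Control 2 and induced 3 are red for Atg13, Pik3c3, Atg14 and Atg9a, and induced 7 is red and control 1 blue for most of the Atg8 family.

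The other genes of the pathway, 134 in 6 lists that leave out cathepsins, gave the same count past the threshold. Of 132 that passed the filter on low counts, 0 had an adjusted p under 0.05 (edgeR; also 0 by DESeq2 and limma-voom), and 2 higher and 0 lower had an unadjusted p under 0.05, where 0.592% and 1.54% of all genes tested did. Galns, a lysosomal sulfatase that acts on glycosaminoglycans, was at 22.2 ± 1.75 CPM in the control group and 25.8 ± 1.63 CPM in the induced group, and Atp6v1b2, a subunit of the proton pump that acidifies lysosomes, at 175 ± 11.1 and 198 ± 18.5 CPM (SD over 5 and 7 tumours). Their log2 fold changes were 0.22 (SE 0.084) and 0.18 (SE 0.084), with all 7 induced tumours above the control mean for both and an adjusted p of 0.99989 (edgeR).

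By list, the log2 fold change was below 0 for 13 of 29 other autophagy proteins, 6 of 15 other receptors of selective autophagy, 7 of 16 subunits of the vacuolar ATPase, 22 of 28 lysosomal hydrolases, 10 of 19 genes of the lysosomal membrane and sorting, and 17 of 25 genes of mTORC1 and AMPK signalling, against 50.2% of all genes tested. The medians were 0.018, 0.011, 0.026, -0.043, -0.030 and -0.036 in that order. Among the other autophagy proteins Tmem41b, a scramblase of the endoplasmic reticulum, was at 37.0 ± 2.64 CPM in the control group and 41.5 ± 3.69 CPM in the induced group (SD over 5 and 7 tumours). Of the other receptors, Tollip had the smallest p and was at 88.6 ± 5.49 and 97.0 ± 8.04 CPM. Fundc1, a receptor on mitochondria, came next at 15.03 ± 3.32 and 12.9 ± 2.29 CPM. The sulfatase Arsb (2.37 ± 3.05 and 1.2 ± 1.41 CPM) and the sorting receptor Sort1 (1.94 ± 2.29 and 1.17 ± 1.04 CPM) had the most negative log2 fold changes of the lists and were named after their values were seen.

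**Figure D5:**
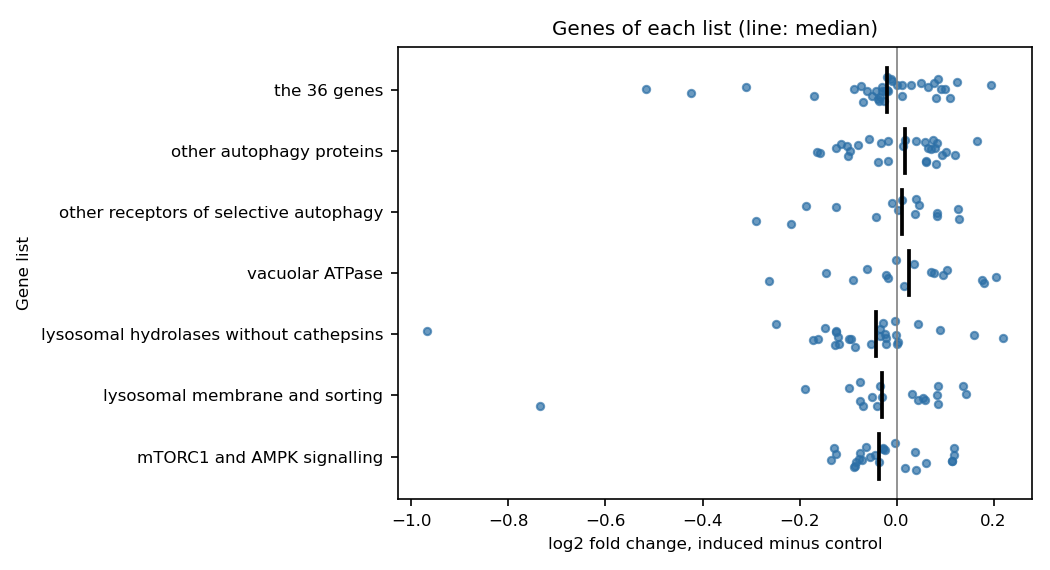
Log2 fold change (induced minus control, edgeR) of each gene (points, vertical offset arbitrary) in the list of 36 genes and in 6 lists of other pathway genes, with the median of each list (black lines). The medians lie between -0.043 and 0.026, and the lowest points are Arsb at -0.97 among the hydrolases and Sort1 at -0.74 among the membrane and sorting genes, both with intervals that include 0.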

How the data were processed

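Bulk RNA-seq of 12 tumours was analysed from 1 deposited table. Per the file headers, the authors' table holds raw counts for each Ensembl gene, rlog values on the log2 scale (not tested here), and their own comparison with a log2 fold change and unadjusted and adjusted p-values. Per the labels' protocols, libraries came from total RNA with a SMARTER mRNA-Seq kit. Per the submitters' processing notes, the build was GRCm38 (mm10). The aligner, the counter and strand handling were not given in the sources used here. Because growth and treatment fields describe adipogenic culture of another cell line, groups were taken from titles.

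Counts were fitted with edgeR 4.0.16 (R 4.3.3) over all 12 tumours: filterByExpr (minimum count 10) kept 15199 of 25116 genes, with TMM factors, the quasi-likelihood F test (robust, two-sided) and Benjamini-Hochberg adjustment over all genes tested. CPM use TMM factors, and log2 CPM a prior count of 2. Exonic lengths and positions came from GENCODE M21 (GRCm38) and promoter windows from RefSeq (GRCm38.p6). No pair of tumours in a group agreed within sampling noise (chi-square per gene 13.0 to 219.9). Alternatives used DESeq2 1.42.0, limma 3.58.1, other filters and size factors, a replicate block and removal of each tumour. The genes, lists and tests were chosen with earlier results of these data known. Values by tumour were given for Peg3, for genes with an unadjusted p under 0.05, and for the smallest p in each role. Single-tumour values of Atg9a, Wipi1, Sqstm1, Pik3c3 and Pik3r4 fall outside this rule and were chosen after their values were seen. Of each other pathway list, at most the 2 genes with the smallest p were named, apart from Arsb and Sort1.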

Additional observations from a re-analysis of the deposited data

Results flagged for a closer look

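In 7 cases a tumour lay far from the rest of its group, with a gap to the next tumour that was a large part of the range of the group in log2 CPM. Control 2 was high for Rb1cc1 (92.84 CPM, the other control tumours 52.39 to 61.55 CPM), for Pik3c3 (43.72 CPM against 30.54 to 33.46 CPM) and for Pik3r4 (33.18 CPM against 25.65 to 27.42 CPM). Induced 3 was high for Pik3c3 (46.13 CPM, the other induced tumours 27.68 to 33.74 CPM) and for Pik3r4 (34.45 CPM against 23.86 to 27.73 CPM). The catalytic and the regulatory subunit of the same lipid kinase were thus marked in the same tumours, 1 in each group. Control 1 was low for Wipi1 (73.33 CPM against 123.2 to 133.3 CPM) and induced 5 was low for Peg3 (0.416 CPM against 1.138 to 2.113 CPM). Over 72 groups of values examined, chance marks about 1 in 20 groups, and genes that vary together are not independent of each other.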

How the results depend on the processing

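The counts of 0 past the threshold, for the 36 genes and for the other pathway genes, were 0 under each alternative run. The number of genes with a lower value in induced tumours was 22, and 14 to 25 when a tumour was left out, with 14 without control 2 and 18 without the 4 tumours that stood apart. The median log2 fold change of -0.020 ran from -0.052 to 0.024 when a tumour was left out. Fits on the 4 tumours that stood apart and without them were chosen after seeing the data. Peg3 turned to 0.45 within these 4 tumours and was -0.57 to -0.18 when a tumour was left out, and its difference in log2 CPM was then -0.56 to -0.17. With the replicate block the Peg3 log2 fold change was -0.40 and Tfeb -0.42, and 0 genes passed. Same-numbered tumours deviated with correlations of -0.531 to 0.21, and 0 of 5 control tumours correlated best with the induced tumour of the same number, so the numbers were not taken as pairs.

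Sign changes of the other genes are listed next, and the cause was not tested. Tfe3 was -0.0063 with RLE size factors, -0.0028 without the filter, -0.011 with the 1 CPM filter and -0.0068 by DESeq2. Optn was -0.0024 with the 1 CPM filter. By limma-voom Ulk2 was 0.012 and Atg12 -0.057. With the replicate block Ulk2 was 0.050, Pik3c3 0.018, Pik3r4 0.012, Atg14 0.047, Uvrag 0.018, Optn -0.044, Tfe3 -0.036 and Lamp1 0.050. Without the 4 tumours Ulk2 was 0.055, Becn1 0.028, Atg14 0.058 and Nbr1 0.050. Leaving out a tumour turned 23 of the genes, with ranges of -0.12 to 0.015 for Ulk1, -0.086 to 0.058 for Ulk2, -0.21 to 0.022 for Atg13, -0.028 to 0.18 for Atg101, -0.080 to 0.014 for Becn1, -0.13 to 0.062 for Pik3c3, -0.098 to 0.033 for Pik3r4, -0.13 to 0.14 for Atg14, -0.073 to 0.029 for Uvrag, -0.013 to 0.19 for Wipi1, -0.66 to 0.025 for Atg9a, -0.088 to 0.0024 for Atg4b, -0.048 to 0.068 for Atg12, -0.11 to 0.089 for Map1lc3a, -0.12 to 0.013 for Map1lc3b, -0.097 to 0.065 for Gabarap, -0.12 to 0.023 for Gabarapl1, -0.098 to 0.059 for Nbr1, -0.039 to 0.072 for Optn, -0.052 to 0.049 for Tfe3, -0.0040 to 0.15 for Mcoln1, -0.053 to 0.022 for Lamp1 and -0.041 to 0.12 for Lamp2. Among genes that kept their sign, Rb1cc1 ran from 0.024 (without control 4) to 0.25 (without control 2). For Peg3, with 9 to 63 counts per tumour, counting error adds to the spread.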
